A study of Rattus norvegicus with 8 samples.

Results

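Blood from the DOCA–HS model was compared after and before the administration of Chios mastic gum (CMG), the resin of Pistacia lentiscus var. Chia, across every gene with enough counts. The comparison used 4 of the 8 libraries of the series, 2 before and 2 after CMG. All 4 came from whole blood of male wild type Wistar rats, between 12 and 14 weeks old at the start, that had received deoxycorticosterone acetate (DOCA) at 100 mg/kg once weekly and drinking water with 0.9% NaCl and 1% KCl. The before libraries stood at week 3 of this regimen, and the after libraries at week 7, after 4 weeks of daily oral CMG at 220 mg/kg. Libraries of rats that had DOCA–HS without CMG were not analysed here, so CMG and 4 further weeks of DOCA–HS cannot be told apart. Replicates are separate libraries of a group, and nothing in the labels says whether a rat gave both a before and an after library. The p-values therefore measure only the spread between these libraries, which may be technical.

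DOCA is a mineralocorticoid precursor of aldosterone, and with a salt load it makes the kidney retain sodium and raises blood pressure. Whole blood RNA is a mixture. Reticulocytes, the young red cells, carry globin and heme synthesis transcripts, platelets carry transcripts left from megakaryocytes, and neutrophils, monocytes and lymphocytes add their own. In such bulk samples fewer cells of a type and less RNA per cell cannot be told apart.

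The libraries held 9631446 and 8175368 counts before CMG and 9046481 and 4149104 afterwards. Hbb and LOC100134871, the latter taken as another hemoglobin gene, held 61.9% and 71.0% of the counts before CMG and 67.1% and 84.3% afterwards, although the study's methods describe the removal of hemoglobin annotations. After replicate 2 stood apart, with 651764 counts outside these genes and 2686 genes with at least 10 counts, against 2370738 to 3667711 counts and 7218 to 8280 genes in the other 3 libraries. Markers of blood cells were present, while 14 of 14 heart muscle markers were too low to be tested and 13 of them had no count in any of the 4 libraries. Of 18 hepatocyte, 12 skeletal muscle, 13 endothelial and 15 connective tissue markers, 2, 2, 4 and 5 were tested. Values per library are given as normalized CPM, which are counts scaled to a common library size after correction by the library's TMM factor. A log2FC is the fitted log2 ratio of after to before from edgeR's quasi-likelihood model, with its standard error (SE).

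The criterion was that of the study, with a log2FC above 1.5 or below −1.5 and p at most 0.05 before adjustment. By it, 138 of 7720 genes tested were upregulated after CMG (1.79%) and 20 were downregulated (0.259%). After Benjamini-Hochberg adjustment 0 genes stayed under 0.05 with edgeR, DESeq2 or limma-voom, and before adjustment 245 genes reached 0.05 with edgeR. The lowest adjusted p-value was 0.997 (edgeR), which was also the value of each gene named here as upregulated or downregulated. Of the called genes, 127 upregulated and 20 downregulated genes had both after libraries on one side of both before libraries. Across all genes tested, 1145 (14.8%) had both after libraries above both before libraries and 1613 (20.9%) had both below. The share of risers among the called genes was 87.3% and depended on the scaling. Scaling to total counts, which lowered the median log2FC of all genes from −0.04 to −0.76, gave 0 upregulated and 9 downregulated genes. Scaling to counts outside hemoglobin gave 20 and 12, of which 62.5% were risers. Without after replicate 2, 96 genes were upregulated and 49 downregulated, of which 26 and 15 were among the genes called with all 4 libraries. In that fit the single after library was assumed to vary as the before libraries did. Evc2 and Ctrb1, with log2FCs of −10.2 and 2.45, were among the genes it ranked first. Their counts split by replicate number and not by CMG, so its adjusted p-values do not single out a change after CMG. Leaving out before replicate 1 left 26 upregulated and 2 downregulated genes, leaving out before replicate 2 left 63 and 5, and leaving out after replicate 1, which left the shallow library alone, gave 606 and 1106.

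Txnip showed the widest separation of all downregulated genes. Txnip encodes thioredoxin interacting protein, which binds and inhibits thioredoxin and limits glucose uptake. It stood at 247 and 258 normalized CPM before CMG and at 58.7 and 40.2 afterwards. Both after libraries were far below both before libraries, and the pairs of each group lay close together. The means were 252 ± 7.80 and 49.4 ± 13.0 (SD, n = 2), a log2FC of −2.34 ± 0.56 (SE). Txnip passed the criterion under each of 13 alternative settings, scaling to total counts and each library left out among them. Without after replicate 2 its log2FC was −2.09. The study named Txnip from these samples, so its direction is not independent evidence. Of the 10 tested genes of the thioredoxin list, Txnip alone passed the criterion, where 0.259% of all genes were downregulated. The median of the list was 0.21 beside −0.04 for all genes. Txn1, thioredoxin itself, had 27.9 and 31.1 normalized CPM before CMG and 40.1 and 80.4 afterwards, a log2FC of 1.01 ± 0.52 (SE) that did not pass and was −0.050 under total counts.

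The other downregulated genes with a mean of 20 counts or more and groups that did not overlap were 9 in number. Mvk, mevalonate kinase of the cholesterol pathway, fell from 2.65 and 3.34 normalized CPM to 0.780 and 0.718, a log2FC of −1.93 ± 0.60 (SE). Its counts were 47 and 31 before CMG and 10 and 1 afterwards. It was the only called gene among 18 tested genes of cholesterol synthesis, whose median was −0.23, where 0.259% of all genes were downregulated. Sh2b2, an adaptor of receptor tyrosine kinase signalling, fell from 5.07 and 4.41 to 1.64 and 1.44 normalized CPM, a log2FC of −1.57 ± 0.50 (SE). Both genes had near equal values within each group, and both were lower in each after library. Sh2b2 had 21 and 2 counts after CMG, so the after replicate 2 values of both genes rest on very few counts. With before replicate 1 or before replicate 2 left out, Mvk was at −2.11 and −1.75 and Sh2b2 at −1.48 and −1.66, and none of these passed, nor did Mvk without after replicate 1, at −2.03. Mrpl44, a protein of the mitochondrial ribosome, had a log2FC of −1.52 ± 0.63 (SE) and Bend5 had one of −1.73 ± 0.74 (SE), with 1 and 0 counts in after replicate 2. Of 62 tested genes of the mitochondrial ribosome, Mrpl44 was downregulated and Mrpl1 upregulated, where 0.259% and 1.79% of all genes were. The median of the 62 was −0.17.

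Ngp and Lcn2 encode proteins of neutrophil granules, made mostly in immature neutrophils. Ngp had 79 and 155 counts before CMG and 6 and 5 afterwards, and stood at 4.45 and 16.7 normalized CPM and then at 0.468 and 3.59. The groups did not overlap, although after replicate 2 lay close to before replicate 1. Its log2FC was −3.27 ± 1.05 (SE), which was −1.66 without before replicate 2 and −1.51 with after replicate 2 as the only after library, and passed in neither. Lcn2 had 18 and 18 counts before CMG and 0 and 1 afterwards. Relative to the normalized library sizes this was a ratio of 0.0529, with an exact 95% interval of 0.00130 to 0.314 that covers counting error only. These were the 2 called genes among 14 tested neutrophil genes, where 0.259% of all genes were downregulated. The median log2FC of the 14 was −0.15. Without after replicate 2 that median was −0.89, and Ngp, Camp and Lcn2 fell and Fcgr3a, an Fc receptor, rose by the criterion.

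**Figure D1:**
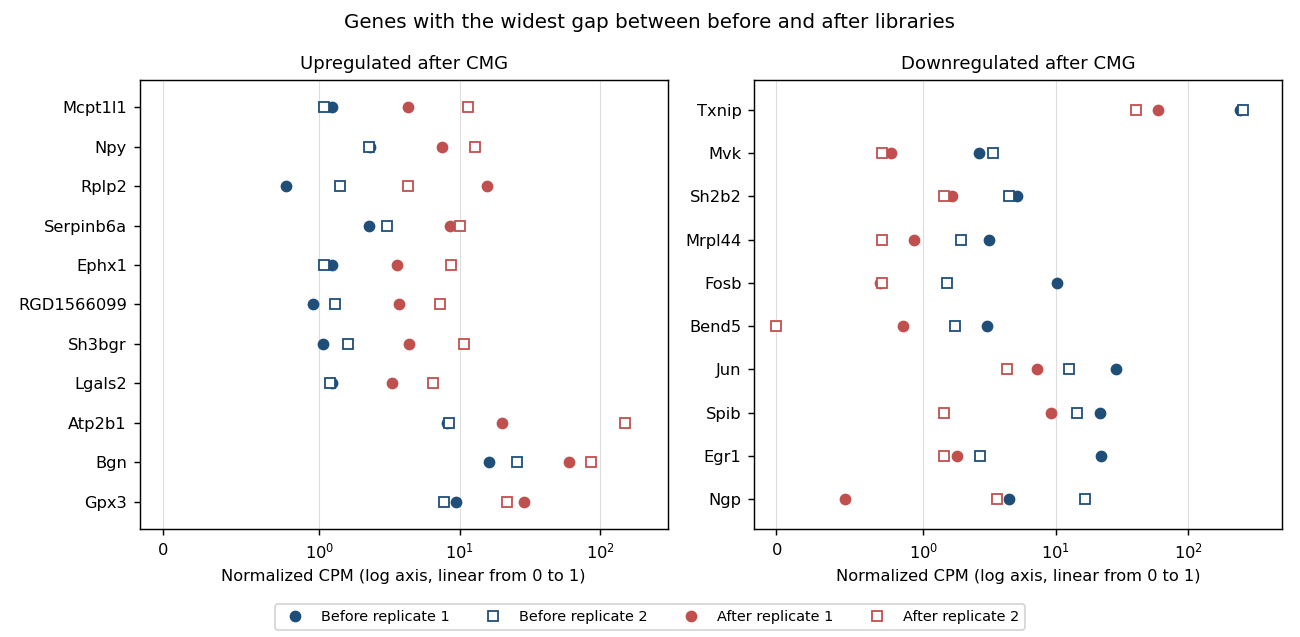
Normalized CPM (log axis, linear from 0 to 1) of 11 of the 12 upregulated genes with the widest gap between before and after libraries (left) and of the 10 downregulated genes that qualified (right), one point per library. Both after libraries lie on one side of both before libraries in each gene, and Txnip drops from 247 and 258 to 58.7 and 40.2.

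Among the upregulated genes, 105 had a mean of 20 counts or more and groups that did not overlap, and 11 of the 12 with the widest gap between the groups were read singly. Mcpt1l1, a protease related to those of mast cell granules, was at 1.24 and 1.08 normalized CPM before CMG and at 4.29 and 11.5 afterwards. The log2FC of Mcpt1l1 was 2.52 ± 0.61 (SE), and its reads may be shared with related protease genes. Npy, which encodes neuropeptide Y, a vasoconstrictor peptide, was at 2.31 and 2.26 before CMG and at 7.49 and 12.9 afterwards, a log2FC of 2.07 ± 0.50 (SE). The before values of Npy were almost equal, and both after values were above them. Serpinb6a, an intracellular serine protease inhibitor, rose from 2.25 and 3.01 to 8.50 and 10.1 normalized CPM, a log2FC of 1.80 ± 0.46 (SE). The SD of its after values was 1.10 normalized CPM (n = 2), small beside the distance to the before values. Bgn, the matrix proteoglycan biglycan, rose from 16.1 and 25.5 to 59.8 and 85.5, a log2FC of 1.80 ± 0.51 (SE). Gpx3, the secreted glutathione peroxidase, rose from 9.35 and 7.75 to 28.8 and 21.5, a log2FC of 1.57 ± 0.45 (SE). It was the 1 called gene among 20 tested antioxidant genes, whose median was 0.35, where 1.79% of all genes were upregulated. Npy, Serpinb6a, Bgn and Gpx3 each passed the criterion without after replicate 2 as well, with log2FCs of 1.72, 1.73, 1.54 and 1.75. With a single before library their log2FCs ranged from 1.46 to 2.19 and did not pass, and Gpx3 did not pass without after replicate 1 either, at 1.32.

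Ephx1, the microsomal epoxide hydrolase, Sh3bgr, the galectin gene Lgals2 and RGD1566099 had log2FCs of 2.13, 2.31, 1.78 and 2.09. They had between 10 and 22 counts in each before library, 42 to 56 in after replicate 1 and 9 to 15 in after replicate 2, so each after replicate 2 value rests on few counts. Atp2b1, a calcium pump of the plasma membrane, was at 8.17 and 8.40 before CMG and at 20.1 and 151 afterwards, a log2FC of 3.34 ± 0.88 (SE) that was 1.29 without after replicate 2. Rplp2, a protein of the large ribosomal subunit, had 14 and 13 counts before CMG and 200 and 6 afterwards. Its log2FC of 3.38 ± 0.67 (SE) was 2.03 with after replicate 2 as the only after library and 3.93 with after replicate 1 alone. Reads of ribosomal protein genes can also come from near-identical gene copies, so these values are uncertain.

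By normalized CPM, most platelet genes stood higher in both after libraries. Platelets have no nucleus, and their transcripts come from the megakaryocytes of the bone marrow. Of 21 genes in the platelet list, 16 were in the count table and 13 were tested, of which 4 were upregulated and 0 downregulated. Over all genes tested, 1.79% were upregulated and 0.259% downregulated. Both after libraries were above both before libraries in 8 of the 13 (61.5%, against 14.8% of all genes tested) and below them in 1. The median log2FC of the 13 genes was 1.26, against −0.04 for all genes, and was the largest among the lists with at least 10 tested genes. It was 1.49 and 0.91 in after replicate 1 against the 2 before libraries, and 1.84 and 1.27 in after replicate 2. Under total counts the median was 0.45, which lay 1.21 above that of all genes.

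Pf4, platelet factor 4, a chemokine of the alpha granules, stood at 151 and 201 normalized CPM before CMG and at 437 and 725 afterwards. The means were 176 ± 35.2 and 581 ± 204 (SD, n = 2), a log2FC of 1.72 ± 0.63 (SE). Nrgn, neurogranin, which binds calmodulin, stood at 131 and 240 before CMG and at 496 and 1242 afterwards, a log2FC of 2.23 ± 0.74 (SE). In both genes the lower after library was more than the higher before library, and after replicate 2 was the highest. Treml1, a receptor of platelet alpha granules, rose from 24.2 and 48.2 to 65.9 and 209, a log2FC of 1.92 ± 0.69 (SE). Vwf, von Willebrand factor, the adhesive protein of platelets and endothelium, rose from 16.7 and 35.0 to 45.5 and 152, a log2FC of 1.92 ± 0.70 (SE). Treml1 and Vwf were at 0.88 and 0.83 without after replicate 2, while Pf4 and Nrgn were at 1.32 and 1.42, all below the threshold of 1.5. With before replicate 1 or before replicate 2 left out, Pf4 had log2FCs of 1.53 and 1.96 and Nrgn had 1.85 and 2.74, and neither passed. Vwf was the 1 called gene among the 4 tested endothelial markers, where 1.79% of all genes were upregulated. The endothelial genes Nos3, Cldn5 and Robo4 had no count in the 4 libraries.

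Clec1b, the receptor for podoplanin, Myl9, a myosin light chain, and Gp9, a chain of the receptor for von Willebrand factor, had log2FCs of 1.42, 1.37 and 1.26 and did not pass. In each of them both after libraries were above both before libraries in normalized CPM. Other members separated the after libraries from each other. Itgb3, the integrin that binds fibrinogen, was at 26.6 and 28.2 before CMG, at 82.6 in after replicate 1 and at 7.90 in after replicate 2. Gp1ba, another chain of the receptor for von Willebrand factor, had 213 and 139 counts in the before libraries and 458 and 4 in the after libraries. Ppbp and Thbs1 had 5 and 9 counts in after replicate 2. Without after replicate 2, Itgb3, Gp1ba, Ppbp and Thbs1 had log2FCs of 1.60, 1.42, 1.23 and 1.27. The 5 tested connective tissue genes had a median of 0.11 and the 4 endothelial genes one of −0.08.

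**Figure D2:**
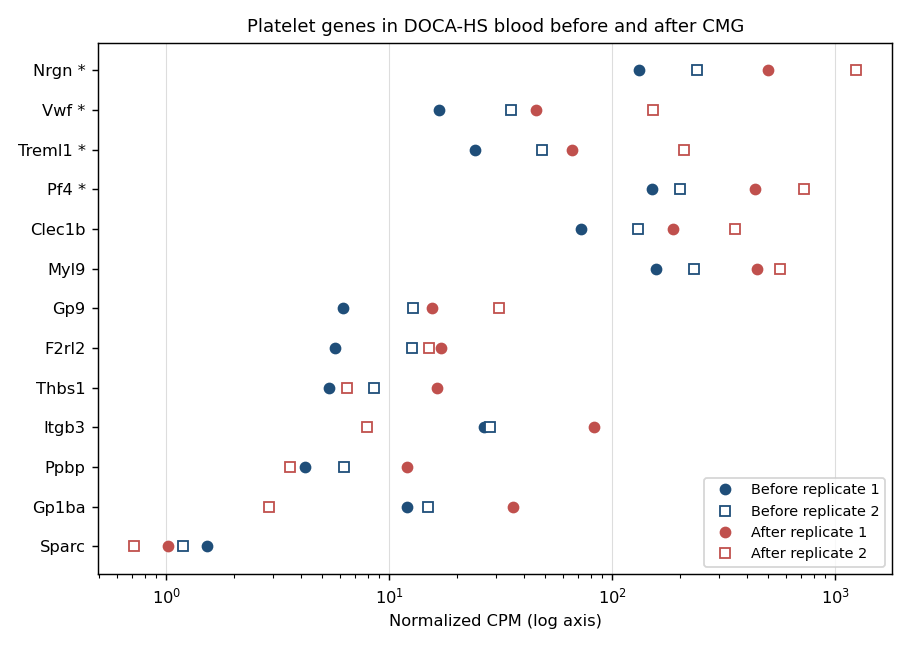
Normalized CPM (log axis) of the 13 tested platelet genes in the 4 DOCA–HS libraries, ordered by log2FC, with the 4 upregulated genes marked by an asterisk. Both after libraries lie above both before libraries in 8 genes, while Itgb3, Gp1ba, Ppbp and Thbs1 are high only in after replicate 1.

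Genes of B cells and of antigen presentation stood lower after CMG. All 17 tested B cell genes had a log2FC below 0, with a median of −0.78, and in 10 of them (58.8%, against 20.9% of all genes) both after libraries were below both before libraries. Only Spib passed the criterion. Spib encodes an ETS transcription factor of B cells and plasmacytoid dendritic cells, and its values were 21.5 and 14.5 normalized CPM before CMG and 9.13 and 1.44 afterwards. The log2FC of Spib was −1.52 ± 0.64 (SE), which was −0.97 without after replicate 2, −1.30 without before replicate 1 and −1.83 without before replicate 2, and did not pass in any of these. Ms4a1, which encodes the B cell antigen CD20, was at 18.0 and 12.7 and then at 9.75 and 1.44, a log2FC of −1.21 ± 0.65 (SE). Cd79b, a signalling chain of the B cell receptor, was at 48.2 and 41.2 and then at 28.6 and 23.0, a log2FC of −0.78 ± 0.46 (SE). After replicate 1 was below both before libraries in both genes. The median of the list in after replicate 1 was −0.75 and −0.29 against the before libraries. In after replicate 2 it was −2.32 and −1.80, where several members had 0 to 2 counts. Over all genes the same medians were −0.01 and 0.01, and −0.33 and −0.29.

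Of 11 tested genes of MHC class II and antigen presentation, 0 passed the criterion, and 8 (72.7%, against 20.9% of all genes) were lower in both after libraries than in both before libraries. Their median was −0.70. Cd74, the invariant chain that guides class II molecules to the endosome, stood at 478 and 408 normalized CPM before CMG and at 262 and 284 afterwards. The after values of Cd74 were close to each other and below both before values, and its log2FC was −0.70 ± 0.58 (SE). RT1-Da, a class II alpha chain of the rat, stood at 125 and 89.3 and then at 66.7 and 30.2, a log2FC of −1.12 ± 0.57 (SE). Both genes had over 40 counts in after replicate 2. Ctss, cathepsin S, which degrades the invariant chain, was higher in both after libraries, with a log2FC of 0.34 ± 0.43 (SE).

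The 20 tested T cell genes had a median of −0.40, and 10 (50%, against 20.9% of all genes) were lower in both after libraries. None passed the criterion. The 4 medians were −0.56 and −0.60 in after replicate 1 and −0.66 and −0.46 in after replicate 2. Over all genes the same medians were −0.01 and 0.01, and −0.33 and −0.29. In after replicate 2 the list thus lay less far below all genes. Cd3e, a chain of the T cell receptor complex, was at 35.8 and 35.7 normalized CPM before CMG and at 23.4 and 14.4 afterwards, a log2FC of −0.89 ± 0.47 (SE). Lck, the kinase of T cell receptor signalling, was at 65.2 and 66.5 and then at 48.5 and 33.0, a log2FC of −0.68 ± 0.48 (SE). Icos, a costimulatory receptor, was the closest to the threshold, at 2.93 and 2.91 and then at 1.09 and 0.718. The last value stands for 1 count, and the log2FC of Icos, −1.5 ± 0.57 (SE), stayed just inside the threshold. The values of the before libraries were nearly equal in each of these 3 genes. Cd247, the zeta chain of the same receptor complex, was at 27.5 and 32.8 and then at 20.5 and 41.7, a log2FC of 0.01 ± 0.51 (SE), and the other 19 T cell genes had one below 0. Cd3e, Icos, Ms4a1, Cd79b, Ctss and the platelet genes that did not pass were named after their values were seen. Among 14 tested genes of cytotoxic lymphocytes, Gzma, granzyme A, was the 1 upregulated gene and 0 were downregulated. Over all genes tested, 1.79% were upregulated and 0.259% downregulated. Gzma rose from 0.901 and 2.37 to 5.07 and 7.18, a log2FC of 1.89 ± 0.59 (SE). The median of the 14 genes was 0.44, and 3 had a log2FC below 0. Of the 14, 6 (42.9%, against 14.8% of all genes) were higher in both after libraries.

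**Figure D3:**
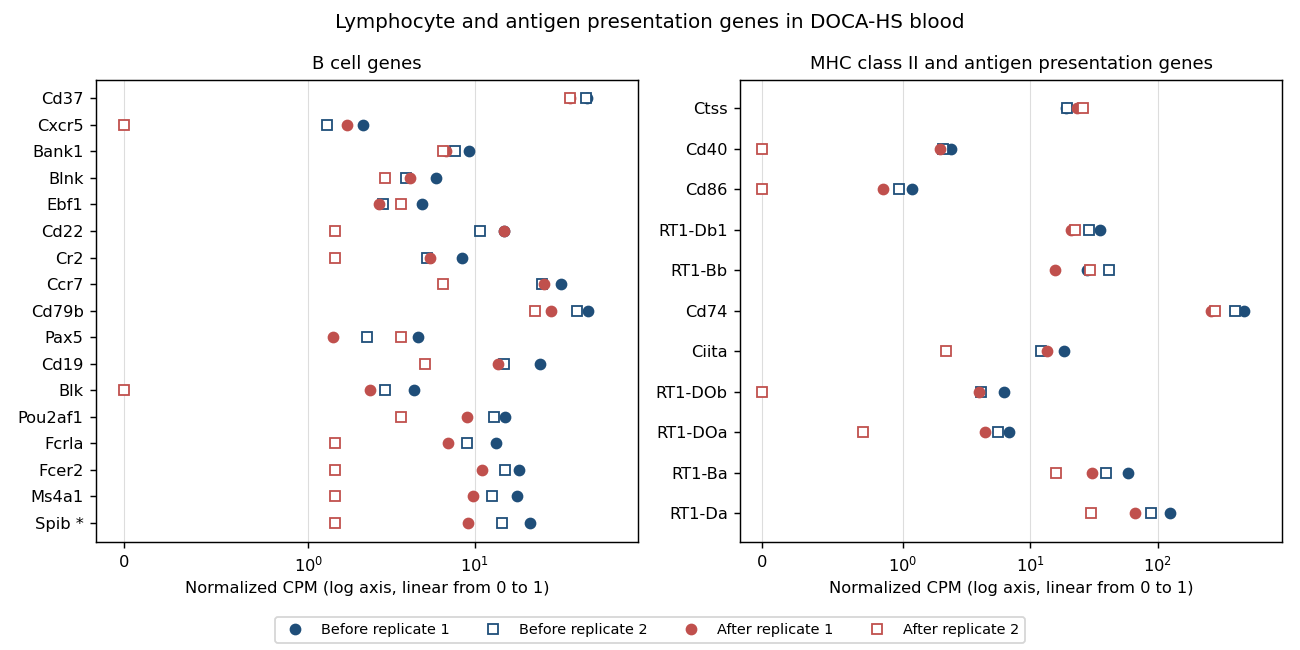
Normalized CPM (log axis, linear from 0 to 1) of 17 B cell genes (left) and 11 genes of MHC class II and antigen presentation (right) in the 4 DOCA–HS libraries, with Spib, the only called gene, marked by an asterisk. After replicate 1 and after replicate 2 both lie below both before libraries in 10 and 8 of these genes, and the lowest points, down to 0 counts, belong to after replicate 2.

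Immediate early genes, which encode transcription factors and regulators that cells switch on within minutes of a stimulus, included 3 downregulated and 0 upregulated genes among 21 tested, where 0.259% of all genes were downregulated. Their median was −0.36, and 11 (52.4%, against 20.9% of all genes) were lower in both after libraries. Jun, a subunit of the AP-1 transcription factor, was at 28.3 and 12.5 normalized CPM before CMG and at 7.18 and 4.31 afterwards, a log2FC of −1.74 ± 0.56 (SE). Egr1, a zinc finger transcription factor, was at 22.1 and 2.69 and then at 1.79 and 1.44, a log2FC of −2.87 ± 0.97 (SE). Fosb, a Fos family subunit of AP-1, was at 10.2 and 1.51 and then at 0.702 and 0.718, a log2FC of −3.07 ± 1.01 (SE). After CMG, Egr1 had 23 and 2 counts and Fosb had 9 and 1. Before replicate 1 was the highest library in these genes, by a wide margin for Egr1 and Fosb, and before replicate 2 lay nearer to the after libraries. Its gap in log2 CPM to the nearest after library was 0.78 for Jun, 0.54 for Egr1 and 0.90 for Fosb. Without before replicate 1 the log2FCs of Jun, Egr1 and Fosb were −1.07, −0.68 and −1.08 and did not pass. Rhob, a small GTPase, was at 31.2 and 18.9 and then at 13.5 and 5.03, a log2FC of −1.32 ± 0.56 (SE) that did not pass. Fos had a log2FC of −1.11 ± 0.59 (SE), and Junb had one of −0.13. The study named Gzma, Egr1, Fosb, Jun and Rhob from these samples, so their directions are not independent evidence, and Fos and Junb were picked after their values were seen. Vegfa, which it also followed, had 11 and 6 counts before CMG and 11 and 1 afterwards and was too low to be tested.

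Genes of the respiratory chain, which passes electrons to oxygen and drives ATP synthesis in mitochondria, differed between the after libraries. Of 33 tested genes of complex I, 1 was upregulated, and of 41 of complexes II to V, 5 were upregulated, where 1.79% of all genes were, with medians of 0.44 and 0.70. In after replicate 1 the medians were −0.09 and −0.17 for complex I and 0.04 and −0.18 for complexes II to V. In after replicate 2 they were 1.11 and 0.99, and 1.39 and 1.15. Atp5me, a membrane subunit of ATP synthase, was higher in after replicate 1 too, with 178 and 90 counts in the before libraries and 283 and 132 in the after libraries, or means of 9.86 ± 0.241 and 58.4 ± 51.4 normalized CPM (SD, n = 2). Its log2FC of 2.53 ± 0.70 (SE) was 1.17 without after replicate 2. Atp5mg, another subunit of ATP synthase, was at 55.0 and 76.2 and then at 96.3 and 471. Ndufa11, an accessory subunit of complex I, was at 15.2 and 18.3 and then at 21.1 and 97.0. Uqcrh, the hinge protein of complex III, was at 143 and 199 and then at 266 and 895. In Atp5mg, Ndufa11 and Uqcrh after replicate 1 was above both before libraries and after replicate 2 was far above the rest. Without after replicate 2 the log2FCs of Atp5mg, Ndufa11, Uqcrh, Uqcr10 and Cox7a2 were 0.56, 0.35, 0.65, 0.27 and 0.34, and none of the 5 passed.

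The promoters of respiratory genes are shown since many nuclear genes of mitochondrial proteins carry sites of the factor NRF-1 or of ETS factors there. RefSeq windows of GRCr8, 250 bases before to 50 after the start, were found by symbol for 109 of the 138 upregulated and 16 of the 20 downregulated genes, and for 6323 of the 7720 genes tested. Of 34 matched genes of complexes II to V, 3 (8.82%) held the NRF-1 palindrome, against 2.25% of the tested genes and 0.954% of all 27457 windows of the RefSeq table. The ETS motif CCGGAAGT on either strand was held by 5 of the 34 (14.7%), against 10.1% of the tested genes. In complex I, 1 of 30 matched genes (3.33%) held the NRF-1 palindrome and 3 (10%) the ETS motif, both near the share of the tested genes. The mitochondrial ribosome list, with a median log2FC of −0.17, had 48 matched genes. Of these, 4 (8.33%) held the NRF-1 palindrome and 7 (14.6%) the ETS motif, close to complexes II to V. Of the upregulated genes, 2.75% held the NRF-1 palindrome and 6.42% the ETS motif, both close to or below the share of the tested genes. The cyclic AMP response motif TGACGTCA, the AP-1 motif TGANTCA and the E-box CACGTG were held by 2.75%, 6.42% and 11% of the upregulated genes, against 3.37%, 5.28% and 10.3% of the tested genes. Windows are given for Atp5me, Ndufa11 and Uqcrh, which hold the NRF-1 palindrome or the ETS motif, while most matched genes of their lists hold neither. Those of the called genes Atp5mg, Uqcr10 and Cox7a2 are not shown. The windows are read 5′ to 3′ on the strand of the gene. Capitals mark the NRF-1 palindrome, whose 2 overlapping matches in Ndufa11 form one block, or the ETS motif on the reverse strand in Uqcrh. A match is a description of the letters and not of a bound factor.
Atp5me, chr14:1464610-1464909, plus strand: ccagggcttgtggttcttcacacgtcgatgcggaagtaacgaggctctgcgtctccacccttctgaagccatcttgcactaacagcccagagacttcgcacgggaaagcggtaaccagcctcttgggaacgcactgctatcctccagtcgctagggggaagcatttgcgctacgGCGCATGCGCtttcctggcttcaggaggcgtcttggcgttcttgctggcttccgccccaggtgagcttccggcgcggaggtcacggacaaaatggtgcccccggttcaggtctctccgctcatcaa
Ndufa11, chr9:1637364-1637663, plus strand: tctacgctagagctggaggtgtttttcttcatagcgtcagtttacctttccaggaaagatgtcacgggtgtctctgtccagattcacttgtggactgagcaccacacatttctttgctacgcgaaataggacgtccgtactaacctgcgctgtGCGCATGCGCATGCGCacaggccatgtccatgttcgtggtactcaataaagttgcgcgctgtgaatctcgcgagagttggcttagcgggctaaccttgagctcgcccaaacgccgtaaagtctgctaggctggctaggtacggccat
Uqcrh, chr5:134790833-134791132, minus strand: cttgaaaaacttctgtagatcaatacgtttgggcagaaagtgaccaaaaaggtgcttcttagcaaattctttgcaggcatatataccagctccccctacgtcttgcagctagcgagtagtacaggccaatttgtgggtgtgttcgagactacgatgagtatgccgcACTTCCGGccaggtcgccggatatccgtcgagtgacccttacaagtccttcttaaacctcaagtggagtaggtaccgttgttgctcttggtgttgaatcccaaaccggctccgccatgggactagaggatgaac

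Heme synthesis, red cell and ribosomal genes were also higher in after replicate 2 than in after replicate 1 by their medians. The 17 tested heme genes had a median of 0.79, at 0.35 and 0.10 in after replicate 1 and 1.25 and 1.12 in after replicate 2. Alad, which makes porphobilinogen in heme synthesis, rose from 19.3 and 21.3 to 30.7 and 113 normalized CPM, a log2FC of 1.80 ± 0.66 (SE) that was 0.61 without after replicate 2. The 21 tested red cell genes had a median of 0.44 and 0 called genes. Bpgm, which makes the regulator of oxygen release from hemoglobin, was at 4157 and 6769 normalized CPM before CMG and at 4385 and 16445 afterwards, a log2FC of 0.93 ± 1.06 (SE). The 32 genes of the small ribosomal subunit had a median of 0.69 and 0 called genes. Of 46 genes of the large subunit, 3 were upregulated, Rplp2, Rpl38 and Rpl37, where 1.79% of all genes were. The median of that list was 0.52. The medians of the red cell, small and large subunit lists were −0.17, −0.16 and −0.09 without after replicate 2. The share of hemoglobin counts, 84.3% in after replicate 2, was highest in the same library. Its part in these values was not tested.

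Other lists held few called genes, and over all genes tested 1.79% were upregulated and 0.259% downregulated. Of 24 genes of vasoactive peptides and their receptors, 15 had no count in the 4 libraries, 6 were tested and 3 were upregulated. Besides Npy these were Ramp3, a receptor partner for adrenomedullin, with 94 and 128 counts and then 256 and 90, and Agrp, a peptide known from appetite control, with 8 and 6 counts and then 19 and 20. Their log2FCs were 2.12 ± 0.71 (SE) and 3.36 ± 1.09 (SE), which were 1.11 and 1.49 without after replicate 2. Agt, Ace, Ednra, Ednrb and Nos3 were among those without a count. Of 22 tested cell cycle genes, Top2a, Hells and Tuba1b were upregulated, with log2FCs of 1.65, 3.48 and 1.54, which were 0.56, 1.25 and 0.44 without after replicate 2. In 10 of the 22 (45.5%, against 14.8% of all genes) both after libraries were above both before libraries, and in 2 below them. The median of the 22 was 0.49, and 0.40 without after replicate 2. Hk2, a hexokinase, was the 1 called gene of 16 in glycolysis, with a log2FC of 2.12 that was 0.83 without after replicate 2. In 8 of the 16 (50%) both after libraries were above both before libraries, and in 1 below them. The median of the 16 was 0.34, and 0.13 without after replicate 2. Psmb6, a catalytic subunit of the proteasome, was the 1 of 39 in its list, with a log2FC of 2.63 from 26, 13, 22 and 29 counts that was 0.27 without after replicate 2. Tnfaip2 was the 1 of 15 in the NF-κB list, with a log2FC of 1.56 that was 0.38 without after replicate 1. Bglap and Bgn were the 2 of 5 connective tissue genes, and the log2FC of Bglap was 3.08 with all libraries and 1.01 without after replicate 2. Atp2b1 was the 1 of 9 among ion pumps and Mcpt1l1 the 1 of 3 among mast cell and basophil genes. Irf7, a transcription factor of the interferon response, was at 433 and 454 normalized CPM and then at 444 and 493, a log2FC of 0.08 ± 0.59 (SE), with all 4 libraries close together. The interferon, innate receptor, monocyte, citric acid cycle and heat shock lists had 0 called genes, with medians of 0.06, 0.05, 0.35, −0.17 and −0.23. The after libraries lay on opposite sides in the innate receptor and monocyte lists. The innate medians were 0.46 and 0.25 in after replicate 1 and −0.99 and −1.51 in after replicate 2, and those of monocyte genes were 0.41 and 0.73 and then −0.72 and −0.15. Without after replicate 2 the innate median was 0.40 and the monocyte median was 0.57. Tlr8, Nod2, Cx3cr1 and Clec4a3, picked from that fit, had log2FCs of 1.37, 1.44, 1.58 and 1.13 there. These 4 genes had 0, 0, 1 and 7 counts in after replicate 2. Of 13 tested corticosteroid response genes, 12 clock genes and 8 NADPH oxidase genes 0 were called, with medians of −0.24, −0.22 and 0.31, and 0 of 3 eosinophil and 0 of 3 plasma cell genes were called.

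**Figure D4:**
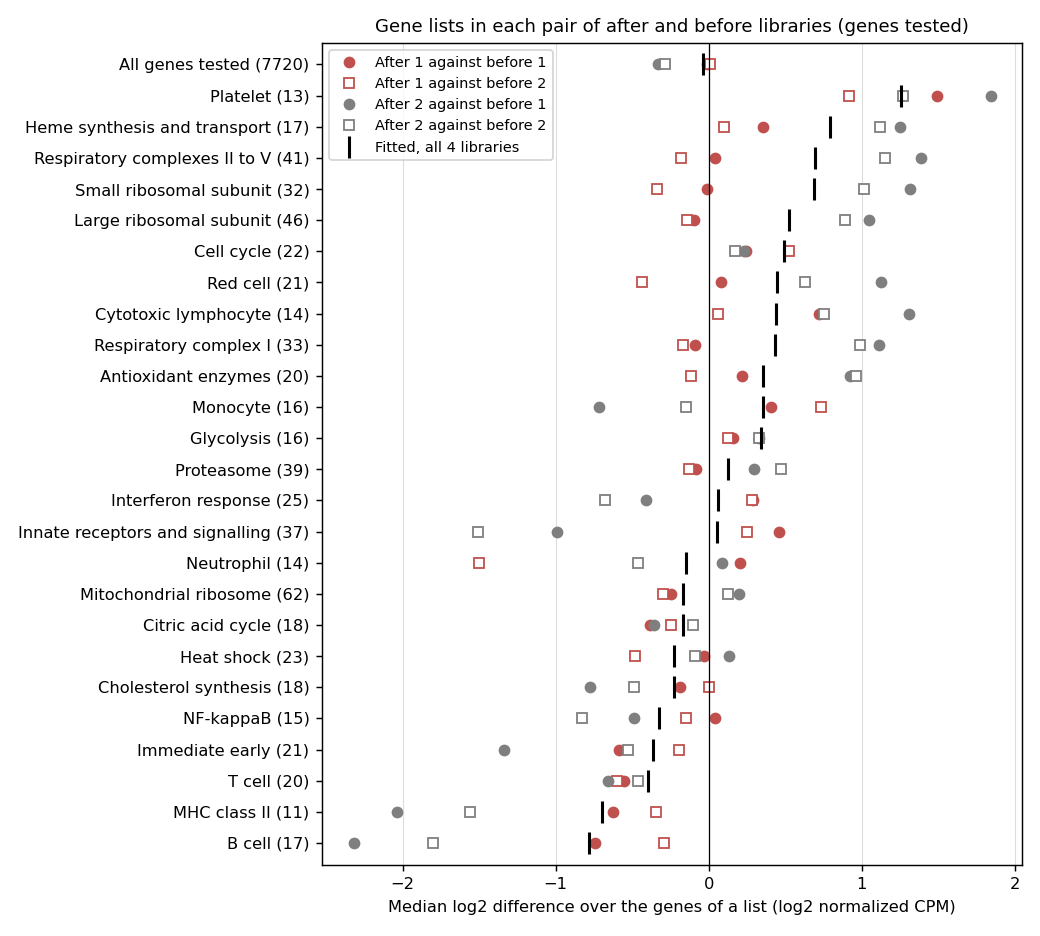
Median log2 difference over the tested genes of each list (number in parentheses) in each pair of an after and a before library, with the fitted median as a vertical bar. The platelet, heme, cytotoxic lymphocyte, cell cycle and glycolysis lists lie above 0 in all 4 pairs. The B cell, MHC class II, T cell, immediate early, citric acid cycle and cholesterol lists lie below 0 in all 4. All genes tested lie at −0.33 and −0.29 in after replicate 2. Respiratory, ribosomal and heme genes lie higher in after replicate 2 than in after replicate 1.

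The change was then compared with that of the AngII model, in which rats of the same strain received angiotensin II at 0.4 mg/kg/day and the same 4 weeks of CMG, sampled at weeks 1 and 5. In a fit of all 8 libraries, the log2FC was higher in the DOCA–HS model by the same criterion in 180 of 7994 genes (2.25%) and lower in 73 (0.913%). The lowest adjusted p-value was 0.881 (edgeR), and 299 genes passed the 0.05 threshold before adjustment. No gene passed an adjusted p-value of 0.05 in edgeR or limma-voom, and 1 passed in DESeq2, while edgeR with no filter on low counts passed 20. The balance of directions depended on the scaling. Total counts, which moved the median difference of all genes from −0.12 to −1.21, gave 2 higher and 30 lower genes, and counts outside hemoglobin, with a median of −0.89, gave 14 and 150. Without DOCA after replicate 2 the counts were 79 and 84. Rplp2 had the lowest p-value among the genes that were higher, with a difference of 6.29 ± 1.45 (SE), but its values in the AngII model were 23 and 143 counts before CMG and 15 and 16 afterwards, and without AngII before replicate 2 the difference was 3.51. Atp5me differed by 3.43 ± 0.86 (SE), with 16.2 and 20.4 normalized CPM before CMG and 12.6 and 7.03 afterwards in the AngII model, and RGD1566099 differed by 2.42 ± 0.63 (SE). The difference of Atp5me was 2.08 without DOCA after replicate 2. Toward the other side, B3gnt5, a glycosyltransferase, differed by −1.90 ± 0.52 (SE). It was at 6.65, 7.22, 4.07 and 2.81 in the DOCA–HS model and at 2.59, 3.04, 4.80 and 6.36 in the AngII model, in the order of before and then after libraries. The groups of B3gnt5 did not overlap in either model and moved in opposite directions. LOC499331 and Sh2b2 differed by −2.18 ± 0.70 (SE) and −2.19 ± 0.72 (SE), the latter by −1.42 without AngII after replicate 2. The difference of Txnip was 0.12 ± 0.61 (SE) and did not pass.

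Of the 13 platelet genes, 0 differed by the criterion, and the median difference was 1.59. Platelet genes varied widely within the groups of the AngII model. Pf4 was at 442 and 143 normalized CPM before CMG and at 393 and 46.3 afterwards, and Nrgn was at 365 and 91.4 and then at 352 and 29.7. Replicate 1 was high and replicate 2 low in both groups, and Pf4 differed more between the AngII after libraries than between the DOCA–HS groups. Npy, Mcpt1l1 and Serpinb6a had the same order in the AngII model, with Npy at 7.31 and 0.845 and then at 4.64 and 0.222. The difference between the models was 3.10 ± 1.43 (SE) for Npy and did not pass. Among the B cell genes, 3 of 17 differed by the criterion and were lower in the DOCA–HS model, where 0.913% of all genes were, with a median difference of −1.11. Without DOCA after replicate 2 the B cell median was −0.74. Under total counts 0 were lower by the criterion and the median was −2.17, beside −1.21 for all genes. Under counts outside hemoglobin 5 were lower and the median was −1.94, beside −0.89 for all genes. Of the genes of complexes II to V, 10 of 41 differed and were higher in the DOCA–HS model, where 2.25% of all genes were, with a median difference of 1.12. Without DOCA after replicate 2, 1 of the 41 was higher and the median was 0.45, and under total counts 0 were higher and the median was −0.27, beside −1.21 for all genes.

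**Figure D5:**
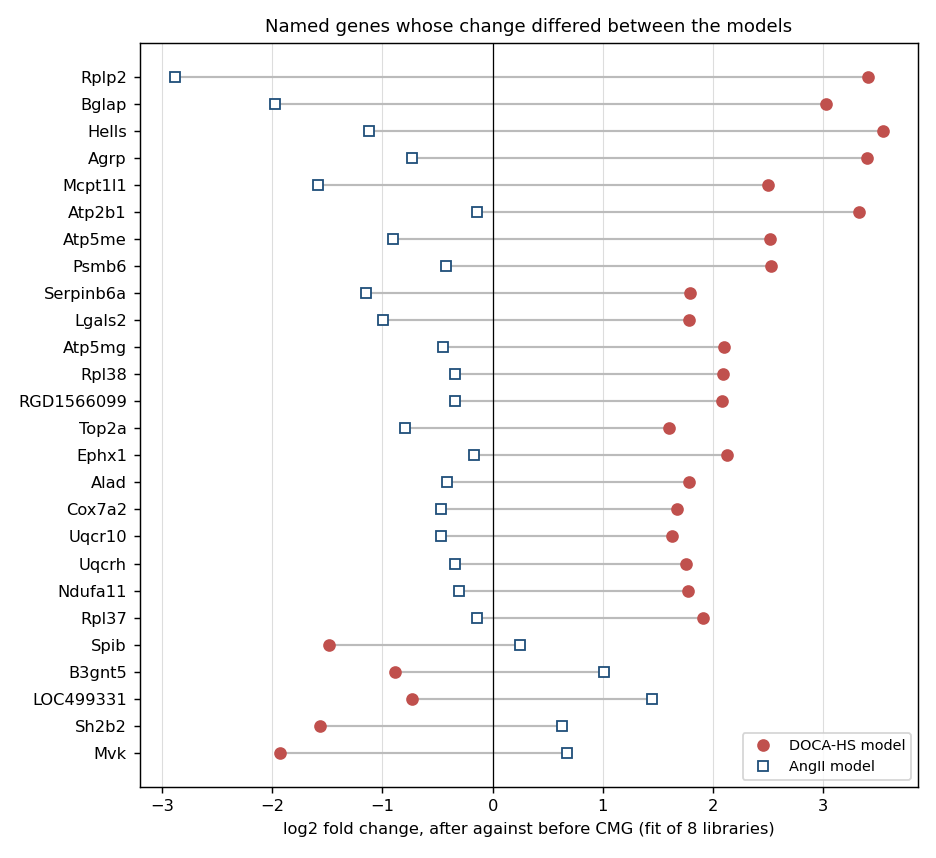
Log2 fold change after against before CMG in the DOCA–HS model (filled circles) and the AngII model (open squares), from a fit of all 8 libraries, for the named genes whose difference between the models passed the criterion. The widest of these differences, 6.29, belongs to Rplp2, and 5 genes were lower in the DOCA–HS model. Many of these genes were named for their change in the DOCA–HS model, and some for the difference itself.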

How the data were processed

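Whole blood RNA was sequenced in 4 libraries of the DOCA–HS model and 4 of the AngII model, of which the labels give the group and replicate number. The authors aligned reads to rn6 with HISAT2 and counted them on genes by strand with HTSeq 2.0.3, and the deposited values are raw counts per gene for 17446 genes. A share of 84.3% hemoglobin counts leaves after replicate 2 with the least precision.

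Here the 4 DOCA–HS libraries were fitted alone, unpaired, in edgeR 4.0.16 (R 4.3.3) with filterByExpr, TMM and the quasi-likelihood test, where the study's methods used DESeq2. The study's thresholds were kept (log2FC above 1.5 or below −1.5, p at most 0.05 before adjustment). A fit of 8 libraries gave the difference between the models. DESeq2 1.42.0, limma 3.58.1, other scalings and filters and each library left out were alternatives. Gaps used log2 CPM with a prior count of 2. The scripts were tested on simulated data.

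Genes named were, of those that passed with a mean of 20 counts or more and whose groups did not overlap, the 12 with the widest gap in each direction, called members of 39 gene lists (or the 2 members with the highest mean CPM where no member was called and the list is described gene by gene), genes the study followed, and 3 genes in each direction of the difference between the models. Members and lists were chosen with earlier results of these data known. Within each DOCA–HS group the 2 libraries were not copies of each other. Their counts gave chi-square values of 94.6 (before) and 84.8 (after) times their degrees of freedom. Before libraries were not compared with after libraries in this way. A gene of the 12 upregulated with the widest gap is not reported here.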

Additional observations from a re-analysis of the deposited data

Results flagged for a closer look

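Among the genes named, 26 had a log2FC that differed between the DOCA–HS and the AngII model by the criterion, in the fit of all 8 libraries. Of these, 21 were higher in the DOCA–HS model. Over all genes, 2.25% were higher and 0.913% lower. Many genes were named for their change in the DOCA–HS model, and some for the difference itself. The count and its balance of directions therefore follow in part from that choice and are no separate result. The adjusted p-value was 0.881 (edgeR) for each of the 26. The differences that were higher in the DOCA–HS model were 6.29 for Rplp2, 5.0 for Bglap, 4.66 for Hells, 4.13 for Agrp, 4.08 for Mcpt1l1, 3.46 for Atp2b1, 3.43 for Atp5me, 2.95 for Psmb6, 2.94 for Serpinb6a and 2.78 for Lgals2. They were 2.55 for Atp5mg, 2.43 for Rpl38, 2.42 for RGD1566099, 2.40 for Top2a, 2.29 for Ephx1, 2.20 for Alad, 2.15 for Cox7a2, 2.10 for Uqcr10, 2.09 for Uqcrh, 2.08 for Ndufa11 and 2.04 for Rpl37. The differences that were lower were −2.61 for Mvk, −2.19 for Sh2b2, −2.18 for LOC499331, −1.90 for B3gnt5 and −1.74 for Spib. In 8 of the 26, both after libraries of one model lay above and those of the other model below both of their before libraries. Genes had been named in part for DOCA–HS groups that did not overlap, and the same share over all genes is not given here.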

How the results depend on the processing

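Counts of upregulated and downregulated genes, 138 and 20 with all 4 libraries, depended on the scaling, the tool and the filter. They were 0 and 9 under total counts, 20 and 12 under counts outside hemoglobin, 211 and 8 with DESeq2, 225 and 43 with no filter (18 and 3 at an adjusted p-value under 0.05 in edgeR), 101 and 8 when genes needed a mean of 20 counts, 141 and 31 in the fit of all 8 libraries, 211 and 34 with a log2FC threshold of 1, and 19 and 1 with p at most 0.01. DESeq2 size factors and limma-voom gave counts within 1.5 times. With one library left out, the counts ran from 26 to 606 and from 2 to 1106, and both highest values left after replicate 2 as the only after library. For the difference from the AngII model, 180 genes higher and 73 lower, they were 2 and 30 under total counts, 14 and 150 under counts outside hemoglobin, 288 and 24 with DESeq2, 433 and 144 with no filter (20 at an adjusted p-value under 0.05 in edgeR), 127 and 36 when genes needed a mean of 20 counts, and 12 and 4 with p at most 0.01. With one library left out they ran from 46 to 731 and from 26 to 1191. Where no construction of the setting shows it, the cause was not tested. Of the 49 genes followed, 42 lost the call under total counts, 30 under counts outside hemoglobin and 16 with limma-voom, and Txn1 turned from 1.01 to −0.050 under total counts. Leaving out before replicate 1, before replicate 2, after replicate 1 or after replicate 2 ended the call of 37, 29, 8 and 27 of them, while Txnip kept its call throughout. The planned offset by protein length was not run, since no protein lengths were used here. After replicate 2, with 651764 counts outside hemoglobin, limits what low genes can show.

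As a replicate block, the replicate number gave 116 upregulated and 25 downregulated genes, of which 102 and 13 were called without it, and 0 at an adjusted p-value under 0.05 (edgeR). For the difference from the AngII model it gave 329 and 125, with 5 genes at an adjusted p-value under 0.05 (edgeR), against 0 without the block. The deviations of same-numbered libraries correlated at 0.32 over genes in the DOCA–HS model, with only 2 pairs, and the labels do not say that a number marks a rat, so the numbers were not taken as pairs.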

Other observations

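Some genes split the libraries by replicate number and not by CMG. With a gap of more than 2 in log2 CPM between the replicates 1 and the replicates 2 of the DOCA–HS model, 5 genes were higher in both replicates 1 and 2 genes in both replicates 2. Ctrb1, which encodes a digestive protease of the pancreas, had 756 and 1499 counts in before and after replicate 1 of the DOCA–HS model and 0 and 0 in before and after replicate 2. In the AngII model it had at most 1 count. Ntn5 had 81 and 63 counts in the replicates 1 and 0 and 0 in the replicates 2 of the DOCA–HS model, and 144 and 68 against 0 and 0 in the AngII model. Evc2 had 12 and 0 counts in the replicates 1 and 204 and 72 in the replicates 2 of the DOCA–HS model, and 3 and 1 against 87 and 78 in the AngII model. RGD1359290 was higher in the replicates 2 of the DOCA–HS model, with 153 and 26 counts against 16 and 20, and in the replicates 1 of the AngII model, with 257 and 92 against 12 and 15. These genes were chosen after their values were seen.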
